A study of Mus musculus with 30 samples.

Results

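Wnt proteins are secreted ligands that bind Frizzled (Fzd) receptors together with the co-receptors Lrp5 and Lrp6, and the canonical arm of the pathway then stabilises beta-catenin and switches on Tcf/Lef target genes. Secreted frizzled-related proteins (Sfrp) sequester Wnt ligands, several but not all Dickkopf proteins (Dkk) bind the Lrp co-receptors, and R-spondins (Rspo) raise the amount of Fzd and Lrp at the cell surface. In the brain the pathway patterns the embryonic hippocampus, and in the adult it takes part in dentate gyrus neurogenesis, synapse formation and the blood-brain barrier. The genes described here were every row of the expression table whose symbol is a numbered Wnt, Fzd, Sfrp, Dkk or Rspo gene, or Lrp5 or Lrp6, which gave 43 of 24883 rows: 19 Wnt, 10 Fzd, 2 Lrp, 4 Sfrp, 4 Dkk and 4 Rspo genes. The family was chosen because Wnt9a was lower after training in these same libraries, so that every contrast with the home-cage mice is given as a description and without a p-value.

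RNA was sequenced from the dorsal hippocampus of 30 adult male C57BL/6J mice of wild-type genotype, 2 to 4 months old, with 6 mice in each of 5 conditions. All mice received an infusion of the transfection reagent jetPEI into the dorsal hippocampus, either without DNA (vehicle, VEH) or complexed with a plasmid that expresses a point mutant of CREST (gene Ss18l1), a subunit of the neuronal BAF chromatin remodelling complex, from a short CaMK2 promoter and so chiefly in excitatory neurons. VEH-HC mice were only handled in the home cage. VEH-T10 mice received 10 min and VEH-T3 mice 3 min of training in the object location memory (OLM) task, the shorter period being below the threshold for long-term memory. Y397F-T10 mice carried the mutant that the sample labels call phospho-null and received 10 min of training. Y397D-T3 mice carried the mutant labelled phospho-mimetic and received 3 min of training. A tyrosine of CREST was replaced by phenylalanine in the former mutant and by aspartic acid in the latter. The paper reports that phosphorylation of this tyrosine could not be detected, and its stated limitations treat both only as point mutants. Tissue was taken 1 h after training. No mouse received a plasmid of unmutated CREST, and no home-cage mouse received a plasmid. Values are FPKM (fragments per kilobase of transcript, scaled to the mapped fragments of the library), a unit that accounts for gene length and so allows levels to be compared between genes.

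The labelled tissue was checked first. The summed FPKM of 6 hippocampal markers (Wfs1, Fibcd1, Neurod6, Prox1, Dsp and C1ql2) lay between 207 and 327 in the 30 libraries. Markers of neighbouring tissue were also present and varied between mice. Summed deep cortical layer and subplate markers ranged from 32.4 to 73.4, thalamic markers from 12.2 to 49.1, and choroid plexus markers, led by the transthyretin gene Ttr, from 10.3 to 12800. Medial habenula markers (6.32 to 14.8), ependymal markers (13 to 132), meningeal fibroblast markers (23.7 to 225) and endothelial markers (102 to 176) completed the non-glial lists. Astrocyte markers summed to 391 to 1620, oligodendrocyte markers to 1110 to 3670 and microglial markers to 96.2 to 436. 4 libraries stood apart from the other trained mice: VEH-T10 mouse 1, Y397F-T10 mouse 1, VEH-T3 mouse 1 and Y397D-T3 mouse 3 each had the highest deep cortical sum of their condition (50.2 to 73.4, against 32.4 to 49.2 in the other 20 trained mice) and the lowest astrocyte, oligodendrocyte and microglial sums. The home-cage mice lay at 49.2 to 61.8 for the deep cortical markers, so that the range of those 20 trained mice ended where the home-cage range began. Ss18l1 itself had group means of 12 to 13.5 FPKM and did not pass the test in Y397F-T10 against VEH-T10 (adjusted p = 1) or Y397D-T3 against VEH-T3 (adjusted p = 0.786, limma).

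The 43 genes spanned the whole range from undetected to abundant. Dkk3, a divergent Dickkopf protein that is abundant in forebrain neurons, had by far the highest mean, 134 FPKM over the 30 libraries. The highest ligand was Wnt7b at 14.4 FPKM, followed by Wnt7a at 4.82. These 2 ligands are known for their action on endothelial cells of the brain. The co-receptors Lrp6 and Lrp5 had means of 6.15 and 3.89 FPKM. Among receptors Fzd3, which is required for axon guidance, was highest at 5.77, and 7 further Fzd genes lay between 2.03 and 3.32. The agonists Rspo2 and Rspo3 reached 4.6 and 3.84 FPKM. Of the Sfrp antagonists only Sfrp1 (2.15) and Sfrp5 (1.02) had a mean of 1 FPKM or more. The gene nearest below that minimum was Sfrp4, at 0.956.

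Rows with a mean of at least 1 FPKM over all libraries were tested, and 23 of the 43 genes met this minimum: 8 Wnt, 8 Fzd, 2 Lrp, 2 Sfrp, 1 Dkk and 2 Rspo genes. Of the 20 genes below it, Dkk1 and Dkk4 were listed at 0 in every library, and Wnt8a was above 0 in 3 libraries and Rspo4 in 8. Wnt3, Rspo1, Sfrp2 and Wnt2b had means between 0.509 and 0.876, and Dkk2 had a mean of 0.121. Wnt11, Fzd5, Wnt16, Wnt6, Fzd10, Wnt9b, Wnt8b, Wnt10b and Wnt1 had means from 0.0714 (Wnt1) to 0.49 (Wnt11). Wnt3a, the ligand most used to drive the canonical pathway in culture, had a mean of 0.0466 FPKM. Wnt3a is also the neighbour of Wnt9a on chromosome 11, with 16175 bases between the 2 annotated genes. The 2 genes thus lay side by side with very unequal levels. When the minimum was removed, 17 of the 20 low genes could be fitted and none passed the test in any of the 8 comparisons. Between trained groups, 1 gene each had an unadjusted p under 0.05 in Y397D-T3 against VEH-T3 (Fzd5), in VEH-T10 against VEH-T3 (Sfrp2) and in the difference between the mutant effects (Fzd5), and 0 in Y397F-T10 against VEH-T10.

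**Figure D1:**
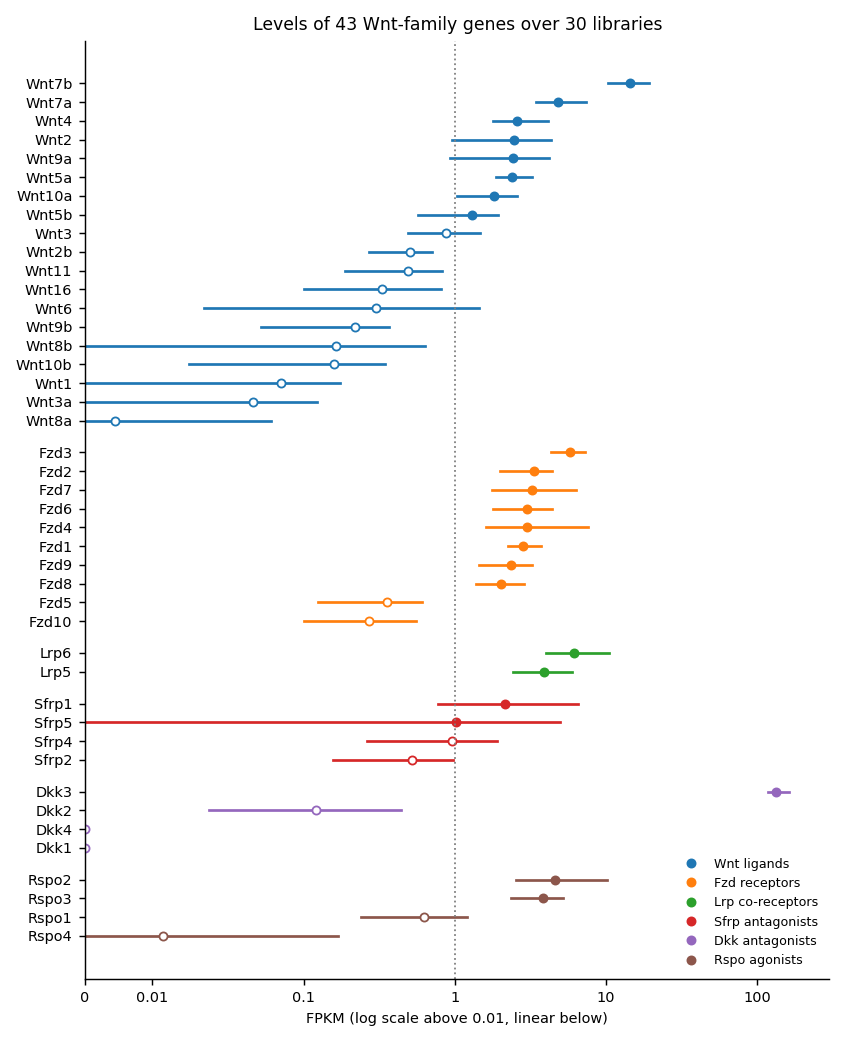
Mean FPKM over 30 libraries (points) with the lowest and highest library (lines) for the 43 genes, by class, on an axis that is logarithmic above 0.01 FPKM. Filled points are the 23 genes with a mean of at least 1 FPKM (dotted line), and Dkk3 at 134 FPKM stands above Wnt7b at 14.4.

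Wnt9a, a ligand with known roles in joint and blood stem cell development, was the member on which the family was chosen. The gene lies on the forward strand of chromosome 11 (59306928 to 59333552, mm10). In VEH-HC mice its FPKM ran from 2.43 through a median of 3.86 to 4.19. In VEH-T10 mice it ran from 0.931 through 1.48 to 2.37, so that no VEH-T10 mouse reached the lowest home-cage mouse, although the gap between the 2 groups was narrow. The other trained conditions lay between: 1.57 through 2.45 to 3.02 in Y397D-T3, 1.74 through 1.95 to 3.34 in VEH-T3, and 1.43 through 1.92 to 3.59 in Y397F-T10. Each of these 3 groups overlapped the home-cage range, because VEH-HC mouse 6 (2.43) lay apart from the other 5 home-cage mice (3.77 to 4.19). All 24 trained mice were below the home-cage median. On the log2(FPKM + 1) scale, which understates the change of low genes, the difference from VEH-HC was -0.86 (standard error 0.159) in VEH-T10, and in the other trained conditions it was -0.47 in Y397D-T3, -0.51 in VEH-T3 and -0.57 in Y397F-T10, with the same standard error. These 4 differences share the same 6 home-cage mice.

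The upstream stretches of Wnt9a, of Wnt4, and of Sfrp5, which varied most between mice, are shown because these members carry the 3 patterns described here. Each was taken from RefSeq (GRCm38.p6) within the 250 bases before the annotated start and ended where the first annotated transcript begins. Capitals mark each GGGCGG (GC box) or TGACG on either strand.

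Wnt9a, chr11:59306680-59306848, forward strand: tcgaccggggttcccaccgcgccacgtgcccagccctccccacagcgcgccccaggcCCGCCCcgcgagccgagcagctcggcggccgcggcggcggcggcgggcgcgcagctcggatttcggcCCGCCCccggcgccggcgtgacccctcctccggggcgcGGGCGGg
Wnt4, chr4:137277385-137277488, forward strand: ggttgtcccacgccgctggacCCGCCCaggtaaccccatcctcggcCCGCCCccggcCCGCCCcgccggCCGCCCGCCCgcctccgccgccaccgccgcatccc
Sfrp5, chr19:42202253-42202502, reverse strand: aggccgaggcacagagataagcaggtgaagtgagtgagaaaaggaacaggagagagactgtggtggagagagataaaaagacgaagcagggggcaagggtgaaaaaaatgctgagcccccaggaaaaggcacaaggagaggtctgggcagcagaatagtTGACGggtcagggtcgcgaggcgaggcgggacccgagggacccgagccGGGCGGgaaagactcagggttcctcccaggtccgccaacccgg

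The Wnt9a and Wnt4 stretches were 84.6% and 83.7% G and C, and that of Sfrp5 was 59.6%. A promoter entry was found for 27 of the 43 symbols. Over the full 250 bases, GGGCGG was present in 20 of these 27 genes (74.1%), against 32.7% of 32851 promoters in all. The cyclic AMP response element TGACGTCA, the binding motif of the activity-regulated factor CREB, was found in none of the 27 and in 1.55% of all promoters. Its shorter core TGACG, which the longer motif also contains, was present in 4 (14.8%, against 17.8%). The Tcf/Lef core letters CTTTGAT and CTTTGTT were each present in 2 genes (7.41%), against 3.21% and 5.03% of all promoters. These are matches of letters on both strands and not sites of binding.

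The next question was whether the mutants or the length of training separated Wnt9a, in contrasts without the home-cage mice. Wnt9a was chosen for its low values after training, and those trained values enter these contrasts. Its differences here are therefore not independent of the choice. Wnt9a was higher in Y397F-T10 than in VEH-T10 by 0.29 (standard error 0.159), with 5 of 6 Y397F-T10 mice above the VEH-T10 median, and this difference did not pass the test (adjusted p = 1, limma). Between Y397D-T3 and VEH-T3 the difference was 0.04 (standard error 0.159, adjusted p = 0.959). Wnt9a was lower in VEH-T10 than in VEH-T3 by 0.36 on the log2 scale (log2 difference -0.36, standard error 0.159, adjusted p = 0.592), and 4 of 6 VEH-T10 mice lay below the VEH-T3 median. The groups overlapped in each of these comparisons. The difference between the 2 mutant effects was 0.25 (standard error 0.224, adjusted p = 0.768, limma), and it contains the same vehicle mice as VEH-T10 against VEH-T3.

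The genes whose values moved most like Wnt9a from mouse to mouse were found by Pearson's r of log2(FPKM + 1) over the 30 libraries after each condition's mean was removed. The 10 nearest of 13184 were Mfsd4 (r = 0.84), Usp2 (0.76), 1700086L19Rik (0.74), Fn3krp (0.74), Sec14l1 (0.74), Ppp1r1a (0.72), Ntf3 (0.71), Fbxo34 (0.70), Rai2 (0.69) and Pard3 (0.69). In each mouse the 2 values compared came from the same dissection and library, so that r describes these 30 libraries. Ntf3 encodes neurotrophin-3 and Usp2 a deubiquitinating enzyme. Usp2 was 23.1 ± 1.07 FPKM in VEH-HC and 17.4 ± 2.29 in VEH-T10 (SD, n = 6), and none of the 10 passed the test in a contrast with VEH-HC.

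**Figure D2:**
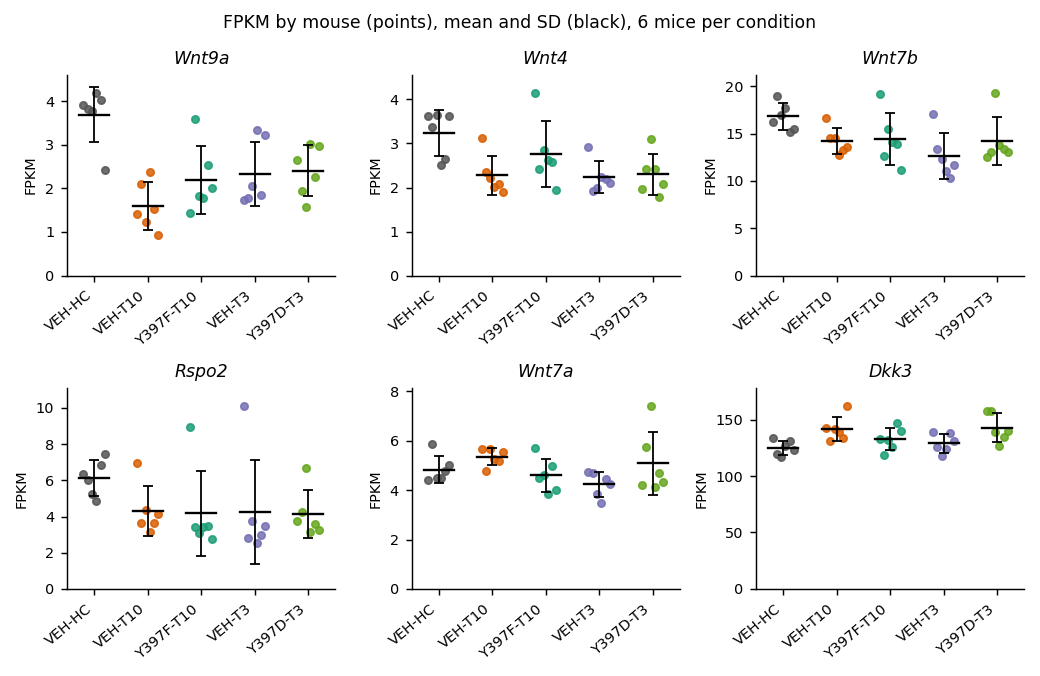
FPKM of 6 genes in each of 30 mice (points), by condition, with the mean and SD of 6 mice (black); the axes start at 0. Wnt9a is highest in the home cage and lowest in VEH-T10, and 1 mouse of each trained condition lies far above the rest for Rspo2.

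Across the tested genes of the family, Wnt9a was the only 1 of 23 to pass the adjusted threshold of 0.05 in VEH-T10 against VEH-HC, where 0.819% of all tested rows passed. In VEH-T3 against VEH-HC 2 of 23 passed, Wnt7b and Wnt4, both lower, beside 5.17% of all rows. None of the 23 passed in Y397F-T10 against VEH-HC (1.13% of all rows) or in Y397D-T3 against VEH-HC (7.07%). At an unadjusted p under 0.05 the counts were 6, 4, 3 and 11 of 23 in the order VEH-T10, VEH-T3, Y397F-T10 and Y397D-T3, beside 14.9%, 21.6%, 16.9% and 24.9% of all rows. A Cyber-T-style test, which is the kind the study used, called 1, 3, 2 and 4 genes in the same order, beside 3.3%, 4.7%, 3.22% and 7.83% of all rows. The signs leaned downwards. Of the 23 genes 20 were lower than VEH-HC in VEH-T10, 18 in VEH-T3, 19 in Y397F-T10 and 17 in Y397D-T3. The median difference over the 23 genes was -0.18 in VEH-T10 and -0.16 to -0.17 in the other conditions, against -0.03 to -0.04 over all tested rows. Since the contrasts chose the family and share their home-cage mice, nothing is read from these counts.

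Wnt4 and Wnt7b were the other ligands past the threshold, in VEH-T3 against VEH-HC. In VEH-T10 the differences from VEH-HC of Wnt10a (-0.22), Wnt5b (-0.13) and Wnt5a (-0.12) did not pass, with 6 of 6 mice below the home-cage median for each. Wnt4, best known from kidney and gonad development, lies on chromosome 4 (137277489 to 137299726). Its FPKM ran from 2.5 through 3.49 to 3.65 in VEH-HC, from 1.93 through 2.15 to 2.93 in VEH-T3, from 1.9 through 2.14 to 3.12 in VEH-T10, from 1.78 through 2.26 to 3.1 in Y397D-T3, and from 1.94 through 2.59 to 4.15 in Y397F-T10. Every VEH-T3, VEH-T10 and Y397D-T3 mouse was below the home-cage median, and all groups overlapped. Wnt7b ran from 15.2 through 16.6 to 19 FPKM in VEH-HC, from 10.3 through 12 to 17.1 in VEH-T3, from 12.7 through 14 to 16.6 in VEH-T10, from 11.1 through 14 to 19.2 in Y397F-T10 and from 12.5 through 13.2 to 19.3 in Y397D-T3. In VEH-T3 against VEH-HC the log2 difference was -0.38 (standard error 0.114) for Wnt4 and -0.39 (standard error 0.111) for Wnt7b. Both calls were near the threshold: with 1 library left out at a time, that of Wnt4 was lost in 10 of 12 fits and that of Wnt7b in 9 of 12.

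The agonists Rspo2 and Rspo3 were also lower on average in each trained condition than in VEH-HC. Neither passed in any comparison of the fit reported, and each trained group overlapped the home-cage range. Rspo2 ran from 4.83 through 6.18 to 7.46 FPKM in VEH-HC, and its trained medians were 3.88 in VEH-T10, 3.67 in Y397D-T3, 3.42 in Y397F-T10 and 3.22 in VEH-T3. Its highest trained values, 6.98, 8.94, 10.1 and 6.7, belonged to the 4 libraries that stood apart. The other 20 trained mice lay at 2.53 to 4.36, below every home-cage mouse. Setting those 4 apart removed the highest trained values, while no home-cage mouse was set apart. The share of all rows without overlap is not given here, so nothing is read from that separation. Rspo3 had a median of 4.55 FPKM (3.95 to 4.72) in VEH-HC and of 4 (2.37 to 5.07) in Y397D-T3, 3.8 (2.47 to 4.48) in VEH-T10, 3.51 (2.52 to 5.22) in Y397F-T10 and 3.5 (3.09 to 4.67) in VEH-T3.

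Wnt4, Wnt7b and Rspo2 all moved with the deep cortical marker sum. Over 30 libraries with condition means removed, Pearson's r between that sum (log2) and the gene was 0.86 for Rspo2, 0.87 for Wnt7b and 0.69 for Wnt4, with Spearman's rho of 0.63, 0.67 and 0.49. The permutation p of these 6 values was between 1e-05, the smallest that the 100000 permutations can give, and 0.00599. After Benjamini-Hochberg adjustment over the 16 values for which a p was computed, r and rho of 4 genes as measured and with condition means removed, these p-values were at most 0.00799. The r of all 23 tested genes with each of 11 marker sums was computed as well, as a description without a p, and is not covered by that adjustment. The genes and the sum were taken up with these same data known, so that the p-values give no independent support for the relation. Without the 2 libraries farthest from the median, r was 0.69, 0.79 and 0.55. Within single conditions of 6 mice, r was 0.65 to 0.99 for the 3 genes in the 4 trained conditions but only -0.28 to 0.35 in VEH-HC. Each trained condition held 1 of the 4 libraries that stood apart, so that 1 mouse can carry much of its r. No r without these 4 libraries is given here, and their part in the relation was not tested. For Wnt9a over the 30 libraries with condition means removed, r was -0.25 (permutation p = 0.192) and rho -0.12 (permutation p = 0.54). These p-values were 0.223 and 0.54 after adjustment. Taken as measured, r for Wnt9a was 0.24, and 0.46 without the 2 libraries farthest from the median. Wnt4, Wnt7b and Rspo2 also moved against other marker sums, given as a description with condition means removed. There r was -0.76 for Wnt4 with the astrocyte and with the microglial sum, and -0.77 for Rspo2 and for Wnt7b with the thalamic sum. Rspo3 had an r of 0.69 with the deep cortical sum. The relation was thus particular neither to that sum nor to these 3 genes.

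With the 4 libraries that stood apart left out, a choice made after the data were seen, 4 of 23 genes passed in VEH-T10 against VEH-HC (Wnt9a, Wnt4, Wnt7b and Rspo2, beside 5.98% of all rows). In VEH-T3 against VEH-HC 4 passed (Wnt4, Wnt7b and Rspo2, lower, and Wnt2, higher, beside 12.7%). In Y397F-T10 against VEH-HC 4 passed (Wnt4, Wnt7b, Rspo2 and Rspo3, beside 6.77%), and in Y397D-T3 3 passed (Wnt4, Wnt7b and Rspo2, beside 10.7%). Wnt9a changed little, to -0.85 (standard error 0.16) in VEH-T10. The log2 difference of Rspo2 went from -0.45 to -0.57 in VEH-T10 and from -0.55 to -0.79 in VEH-T3. The 4 libraries held the highest trained values of Rspo2 (6.7 to 10.1), Wnt7b (16.6 to 19.3) and Wnt4 (2.93 to 4.15), and no home-cage mouse was left out. Leaving them out thus lowered the trained values of these 3 genes by construction, and nothing is read from the added calls. The deep cortical sum was itself higher in the home-cage mice (49.2 to 61.8) than in those 20 trained mice (32.4 to 49.2), and its part in the differences of Wnt4, Wnt7b and Rspo2 was not tested. In bulk tissue, fewer cells of a type and less RNA per cell cannot be told apart.

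Wnt2, a ligand that is prominent in lung and vascular development, went the other way from Wnt4. Its FPKM was 1.71 to 2.3 FPKM in VEH-HC, 0.965 to 1.79 in the 4 libraries that stood apart, and 1.72 to 4.34 with a median of 2.9 in the other 20 trained mice. With condition means removed, its r with the hippocampal marker sum was 0.75 and with the deep cortical sum -0.64, given as a description over 30 libraries.

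Wnt7a was higher after the longer than after the shorter training in the vehicle mice, without passing the test. It ran from 4.79 through 5.42 to 5.68 FPKM in VEH-T10 and from 3.47 through 4.34 to 4.74 in VEH-T3, and the 2 groups did not overlap. The share of all rows without overlap in this comparison is not given here, so nothing is read from that. By limma 8.15% of all rows had an unadjusted p under 0.05 in it. The log2 difference was 0.28 (standard error 0.0986, adjusted p = 0.463, limma), the smallest p of the 23 genes in that comparison. Y397F-T10 mice had Wnt7a values of 3.84 through 4.55 to 5.69 and Y397D-T3 mice of 4.12 through 4.52 to 7.4. Relative to the vehicle mice with the same training, Wnt7a was lower with Y397F (log2 difference -0.19, standard error 0.0986, adjusted p = 1) and higher with Y397D (0.20, standard error 0.0986, adjusted p = 0.635). The 2 mutant effects differed by -0.39 (standard error 0.139, adjusted p = 0.415, limma). That difference contains the same VEH-T10 and VEH-T3 mice as the comparison of training lengths above, so that the 2 are not separate observations. Each mutant was given with only 1 training length, so that mutant and length cannot be told apart in it.

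Dkk3 was lowest on average in the home cage. Its FPKM ran from 117 through 125 to 134 in VEH-HC, from 118 through 128 to 139 in VEH-T3, from 119 through 132 to 147 in Y397F-T10, from 127 through 140 to 158 in Y397D-T3 and from 131 through 141 to 162 in VEH-T10. It was higher in Y397D-T3 than in VEH-T3 by 0.14 (standard error 0.0585, adjusted p = 0.578), with 5 of 6 mice above the VEH-T3 median, and higher in VEH-T10 than in VEH-T3 by 0.13 (standard error 0.0585, adjusted p = 0.592), with 6 of 6. The mutant effects differed by -0.24 (standard error 0.0828, adjusted p = 0.415, limma), a difference that contains the same vehicle mice as VEH-T10 against VEH-T3. None of these differences passed, although the standard error of Dkk3 was the smallest of the 23 genes. Dkk2 was low throughout, with group medians of 0.0723 to 0.167 FPKM.

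In the contrasts without the home-cage mice, none of the 23 genes passed the adjusted threshold. In Y397F-T10 against VEH-T10 0 of 23 passed, as did 0% of all tested rows, with no gene at an unadjusted p under 0.05 (3.78% of all rows) and none by the Cyber-T-style test (0.197% of all rows). In Y397D-T3 against VEH-T3 0 of 23 passed beside 0.00758% of all rows, 3 genes (Dkk3, Wnt10a and Fzd4) had an unadjusted p under 0.05 beside 7.87%, and the Cyber-T-style test called none beside 0.599%. In VEH-T10 against VEH-T3 0 of 23 passed beside 0.0455%, 4 genes (Wnt7a, Dkk3, Wnt9a and Fzd3) had an unadjusted p under 0.05 beside 8.15%, and the Cyber-T-style test called none beside 0.622%. For the difference between the mutant effects 0 of 23 passed beside 0.0303% of all rows, and 4 genes (Dkk3, Wnt7a, Fzd3 and Lrp6) had an unadjusted p under 0.05 beside 9.08%. Wnt10a was above the VEH-T3 median in 6 of 6 Y397D-T3 mice (2.15 against 1.67 FPKM on average, adjusted p = 0.619, limma).

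**Figure D3:**
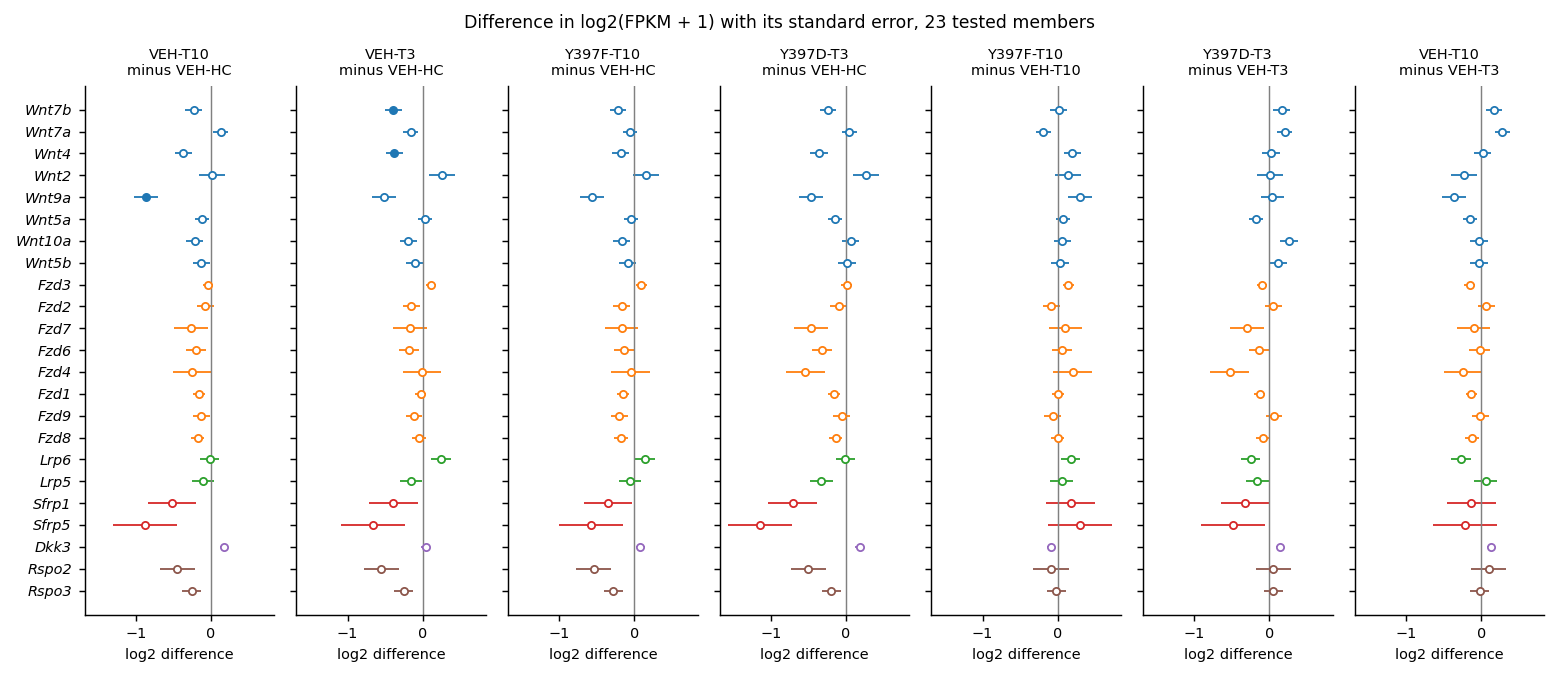
Difference in log2(FPKM + 1) with its standard error for the 23 tested genes in 7 comparisons, coloured by class as in the plot of levels, with filled points for genes past the adjusted threshold of 0.05. Filled points occur only for Wnt9a in VEH-T10 against VEH-HC and for Wnt7b and Wnt4 in VEH-T3 against VEH-HC, and the Sfrp genes have the widest errors.

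No Fzd or Lrp gene passed the test in any comparison. The most negative receptor values were those of Fzd4, with a log2 difference of -0.54 (standard error 0.258) in Y397D-T3 against VEH-HC and of -0.53 (standard error 0.258, adjusted p = 0.633, limma) against VEH-T3, the most negative of the 23 genes in the latter comparison. Fzd7 was at -0.47 (standard error 0.223) in Y397D-T3 against VEH-HC, and both genes moved with the choroid plexus markers described next. Fzd3 ran from 5.08 through 5.67 to 5.97 FPKM in VEH-HC, from 4.31 through 5.86 to 6.22 in Y397D-T3, from 5.08 through 5.88 to 7.25 in Y397F-T10, from 4.98 through 5.39 to 5.82 in VEH-T10 and from 5.58 through 5.97 to 7.05 in VEH-T3. All VEH-T10 mice were below the VEH-T3 median (log2 difference -0.15, standard error 0.0715, adjusted p = 0.61, limma). Fzd2 had group medians of 3.09 to 3.67 FPKM and a range of 2 to 4.39 over all mice. Lrp5 had group medians of 3.06 in Y397D-T3 to 4.17 in Y397F-T10. Lrp6 was 7.09 ± 1.84 FPKM in VEH-T3 and 5.7 ± 0.502 in Y397D-T3 (SD, n = 6), with all Y397D-T3 mice below the VEH-T3 median (log2 difference -0.25, standard error 0.13, adjusted p = 0.646, limma), and VEH-T3 mouse 4 alone reached 10.5.

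A set of antagonists and receptors moved from mouse to mouse with the choroid plexus, the epithelium of the brain ventricles that secretes cerebrospinal fluid. The choroid plexus sum was 919 or more in all 6 VEH-HC mice and in 4 VEH-T3, 2 VEH-T10, 2 Y397F-T10 and 1 Y397D-T3 mice, and lay between 10.3 and 364 in the other 15 mice. Sfrp5 was 0.217 to 4.97 FPKM in the 15 mice with the higher sums and 0 to 0.204 in the 15 with the lower sums. Among the 24 trained mice alone, 9 had the higher sums, and Fzd4 was 2.62 to 7.56 FPKM in these against 1.6 to 2.47 in the other 15. Lrp6 was 6.21 to 10.5 in the 9 and 4.91 to 6.06 in the 15. Sfrp5, Fzd4 and Lrp6 thus did not overlap between the 2 sets of trained mice. With the home-cage mice included, Fzd4 (1.79 to 7.56 against 1.6 to 2.47) and Lrp6 (3.98 to 10.5 against 4.91 to 6.06) did overlap. The share of all tested rows without overlap is not given here, so nothing is read from the number of these genes. Sfrp1 was 1.54 to 6.54 against 0.777 to 1.89, and Fzd7, a receptor that is widely expressed in progenitor cells, was 2.63 to 6.35 against 1.75 to 3.47, with a small overlap in each. Wnt9a overlapped widely between the 2 sets of trained mice, at 1.42 to 3.59 (median 2.06) against 0.931 to 3.22 (median 1.93).

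These 2 sets of mice were defined by the markers and are not conditions of the study. The dividing value of 919 was the lowest sum of a home-cage mouse, so that every home-cage mouse was on the high side by construction. Of the 24 trained mice 9 were on that side. The log2 differences of Sfrp5 from VEH-HC were -1.14 in Y397D-T3, -0.88 in VEH-T10, -0.66 in VEH-T3 and -0.58 in Y397F-T10. Those of Sfrp1 were -0.71, -0.52, -0.39 and -0.35 in that order. The part of the choroid plexus in these differences was not tested. Neither gene passed. By condition, Sfrp5 had medians of 1.85 FPKM (0.506 to 2.73) in VEH-HC, 0.387 (0 to 4.61) in VEH-T3, 0.151 (0.0287 to 2.27) in VEH-T10, 0.136 (0 to 0.924) in Y397D-T3 and 0.0936 (0.0475 to 4.97) in Y397F-T10. Sfrp1 had medians of 3.19 (1.12 to 3.91), 1.55 (0.918 to 6.54), 1.65 (0.945 to 2.91), 1.22 (0.777 to 2.44) and 1.17 (0.827 to 6.18) in the same order. On the log2(FPKM + 1) scale all 7 choroid plexus markers were lower in sign in each trained condition than in VEH-HC, and none passed. As FPKM, the mean choroid plexus sum was 3200 in VEH-HC and 3270 in VEH-T3, where 1 mouse reached 12800. It was 2820 in Y397F-T10, 1420 in VEH-T10 and 584 in Y397D-T3. Meningeal fibroblast markers moved with the same genes: with condition means removed, r over 30 libraries was 0.94 between Sfrp5 and their sum and 0.86 between Sfrp5 and the choroid plexus sum. The 2 tissues cannot be told apart here. For Wnt9a these r were 0.40 and 0.37, given as a description.

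**Figure D4:**
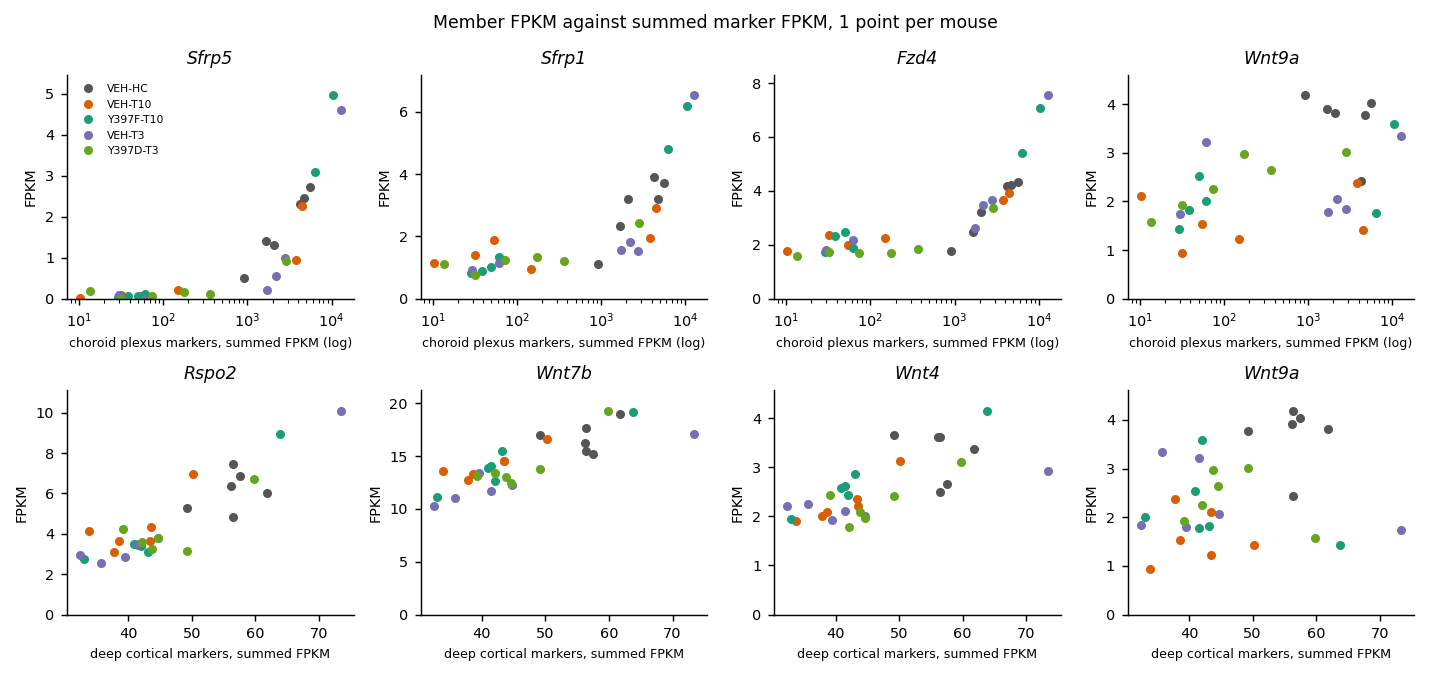
FPKM of 7 genes in 30 mice (points, coloured by condition) against the summed FPKM of choroid plexus markers (upper row, logarithmic axis) or of deep cortical markers (lower row); Wnt9a is drawn in both rows. Sfrp5, Sfrp1 and Fzd4 rise at the high end of the choroid plexus sum, Rspo2, Wnt7b and Wnt4 rise with the deep cortical sum, and Wnt9a is scattered in both of its panels.

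The rest of the pathway was described by 4 lists, whose counts in the home-cage contrasts are again read against the shares of all rows given above. Of 20 genes for Wnt secretion, other receptors and modulators, 11 were tested, and only Ptk7, a co-receptor of the planar polarity arm, passed, being lower in Y397D-T3 than in VEH-HC (2.12 against 2.7 FPKM, log2 difference -0.24, standard error 0.0727). Of 30 genes of the beta-catenin arm 29 were tested. None passed in VEH-T10 or Y397F-T10 against VEH-HC, 2 were higher and 1 lower in VEH-T3, and 3 were higher and 1 lower in Y397D-T3. Pygo1, a beta-catenin co-activator, was higher in both, with 7.9 ± 1.11 FPKM in VEH-HC, 9.82 ± 1.08 in VEH-T3 and 10.4 ± 0.819 in Y397D-T3 (SD, n = 6). Tnks2, a tankyrase that marks Axin for degradation, was higher in VEH-T3 (log2 difference 0.17), and Pygo2, a relative of Pygo1, was lower there (-0.14). The signal transducers Dvl1 and Dvl2 were higher in Y397D-T3 (0.21 and 0.29), and the transcription factor Tcf7l2 was lower (-0.37). Tcf7l2 is also 1 of the thalamic markers, of which all 5 tested were lower in sign and 2 passed in that contrast, and the part of thalamic tissue in it was not tested.

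Of 12 planar polarity genes all 12 were tested. Prickle2, a core polarity protein found at synapses, passed in 3 of 4 home-cage contrasts, with 36.3 ± 3.05 FPKM in VEH-HC against 43.8 ± 3.07 in VEH-T3, 43.4 ± 3.62 in Y397F-T10 and 44.3 ± 2.36 in Y397D-T3, and it was 41.7 ± 2.62 in VEH-T10 (SD, n = 6). The cadherin Celsr3 was higher in Y397D-T3 (10.6 ± 1.37 against 7.1 ± 1.06 FPKM in VEH-HC). Of 14 transcriptional targets and feedback genes 11 were tested and none passed in any comparison. Axin2, the most general target of the canonical pathway, was 6.35 ± 0.429 FPKM in VEH-HC, 5.75 ± 0.522 in Y397D-T3, 5.45 ± 0.457 in VEH-T3, 5.31 ± 0.589 in Y397F-T10 and 5.14 ± 0.709 in VEH-T10 (SD, n = 6). No gene of the 4 lists passed in the contrasts between mutant and vehicle, in VEH-T10 against VEH-T3, or in the difference between the mutant effects. Unadjusted p-values under 0.05 were found by limma for 2, 1, 1 and 0 genes in Y397F-T10 against VEH-T10, for 2, 6, 1 and 0 in Y397D-T3 against VEH-T3, for 2, 3, 1 and 1 in VEH-T10 against VEH-T3 and for 3, 4, 1 and 1 in the difference, in the order secretion, beta-catenin, targets and polarity (of 11, 29, 11 and 12 tested). Over all rows the shares in these comparisons were 3.78%, 7.87%, 8.15% and 9.08%. Porcn, the enzyme that attaches the lipid of Wnt proteins, was named after its values were seen and was above the VEH-T3 median in 6 of 6 Y397D-T3 mice, at 37.9 ± 2.33 against 32.7 ± 2.91 FPKM (log2 difference 0.21, standard error 0.0663, adjusted p = 0.52, limma).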

How the data were processed

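Total RNA of 30 dorsal hippocampi was sequenced as paired reads on 2 Illumina instruments, and the sources used here do not say which library ran on which. Per the submitters' processing notes and the study's methods, the authors aligned reads to mm10 with TopHat2 (2.1.1) and computed FPKM with Cufflinks (2.2.1). The deposited FPKM values hold no counts, so that absolute depth is unknown. The steps between values of low genes placed the libraries' relative depth at 0.812 to 1.25 times the median.

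The 43 genes, the gene lists and the markers were chosen with earlier results of these data known. Differences were fitted with limma (3.58.1, R 4.3.3) on log2(FPKM + 1) in all 30 libraries, with a trend of the variance on the mean, over the 13184 of 24883 rows with a mean of at least 1 FPKM. Benjamini-Hochberg adjustment was made per comparison over these rows, with a threshold of 0.05. Tests were two-sided and measure the spread between mice. A Cyber-T-style analysis of variance (window 101, prior weight 10) was an alternative. Both were tested on simulated data. Mice with the same replicate number were not treated as pairs. Full values are given for Wnt9a, every gene past the adjusted threshold in a pairwise comparison and the 2 genes of highest mean FPKM in each class; Wnt2, Wnt10a, Fzd4, Fzd7 and Porcn were named after their values were seen. Gene positions are from GENCODE M21. Other settings tried were another pseudocount, no filter, centred libraries, only the compared conditions, a replicate block and each mouse left out.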

Additional observations from a re-analysis of the deposited data

Results flagged for a closer look

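Within conditions, 1 mouse lay far from the other 5, by Dixon's test at its 95% critical value, in 16 of 70 combinations of gene and condition looked at, for the 14 genes given with full values. Chance flags about 3.5 of 70. The 16 flags fell on 10 mice.

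Rspo2 was flagged in all 4 trained conditions, each time for the mouse with the highest deep cortical markers: 6.98 FPKM in VEH-T10 mouse 1, 8.94 in Y397F-T10 mouse 1, 10.1 in VEH-T3 mouse 1 and 6.7 in Y397D-T3 mouse 3. In 2 of these mice other genes stood out as well, namely Wnt4 (2.93, against 1.93 to 2.25 in the other 5) and Dkk2 (0.444, against 0.0492 to 0.119) in VEH-T3 mouse 1, and Wnt7b (19.3, against 12.5 to 13.8) in Y397D-T3 mouse 3.

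Sfrp1 and Sfrp5 stood out in mouse 4 of VEH-T3 (6.54 and 4.61 FPKM) and in mouse 4 of Y397D-T3 (2.44 and 0.924), and so did Lrp6 in VEH-T3 mouse 4 (10.5, against 5.51 to 7.29).

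Wnt9a was lowest in VEH-HC mouse 6, at 2.43 FPKM against 3.77 to 4.19. Rspo3 was lowest in VEH-HC mouse 4, at 3.95 against 4.51 to 4.72. Dkk3 reached 162 in VEH-T10 mouse 6, against 131 to 143. Fzd3 was 4.31 in Y397D-T3 mouse 1, against 5.67 to 6.22.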

How the results depend on the processing

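Wnt9a in VEH-T10 against VEH-HC, the contrast that chose the family, had log2 differences of -0.95 to -0.78 when 1 mouse was left out and of -1.20 with a pseudocount of 0.1 FPKM, given as a description. Counts of genes past the threshold varied with the setting, and the causes were not tested. In VEH-T3 against VEH-HC the 2 calls became 1 with no filter on low values (2.8% of all rows), 0 with libraries centred on their median (2.59%), 0 with only the compared libraries (0%), against 5.17% in the fit reported, and 4 without the 4 libraries highest in deep cortical markers. That last setting, chosen after seeing the data, gave 4 in VEH-T10, 4 in Y397F-T10 and 3 in Y397D-T3 against VEH-HC, and turned Wnt7b in Y397F-T10 against VEH-T10 to -0.03. Y397D-T3 against VEH-HC went from 0 to 8 with only the compared libraries, while the share of all rows went from 7.07% to 14%. Centring moved the split of all rows called higher and lower from 42 and 66 to 33 and 13 in VEH-T10, from 294 and 387 to 239 and 102 in VEH-T3, from 62 and 87 to 30 and 12 in Y397F-T10, and from 515 and 417 to 692 and 248 in Y397D-T3, each against VEH-HC. The Cyber-T-style test called 2 genes in Y397F-T10 and 4 in Y397D-T3 against VEH-HC. At an unadjusted p under 0.05 the counts against VEH-HC were 6 (VEH-T10), 4 (VEH-T3), 3 (Y397F-T10) and 11 (Y397D-T3). They were 3 in Y397D-T3 against VEH-T3, 4 in VEH-T10 against VEH-T3 and 4 for the difference between the mutant effects.

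With 1 mouse left out, the counts were 1 to 2 in VEH-T10, 0 to 3 in VEH-T3, 0 to 1 in Y397F-T10 and 0 to 1 in Y397D-T3 against VEH-HC, and 0 elsewhere. Against VEH-HC, the contrasts that chose the family, Wnt9a did not pass in VEH-T3, Y397F-T10 or Y397D-T3 in the fit reported. It passed in VEH-T3 without VEH-HC mouse 6, VEH-T3 mouse 4 or VEH-T3 mouse 6. It also passed in Y397F-T10 without VEH-HC mouse 6 or Y397F-T10 mouse 2, and in Y397D-T3 without VEH-HC mouse 6. VEH-HC mouse 6 was the home-cage mouse that lay apart, and nothing is read from these passes. Small differences changed sign: Wnt9a (-0.01 to 0.12) and Wnt4 (-0.04 to 0.08) in Y397D-T3 against VEH-T3, Wnt4 in VEH-T10 against VEH-T3 (-0.05 to 0.07) and Wnt7b in Y397F-T10 against VEH-T10 (-0.08 to 0.07). The labels do not say that same-numbered mice are related, and their deviations correlated at -0.496 to 0.84, over 0.1 in 24 of 60 pairs. Some did deviate alike: 3 of the 4 libraries highest in deep cortical markers were mouse 1, and mouse 4 had a choroid plexus sum of 919 or more in all 4 trained conditions. The replicate block changed the count only in Y397D-T3 against VEH-HC, to 2 (Dkk3 and Wnt4).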
